A study of Homo sapiens with 41 samples.

Results

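Open chromatin was compared by ATAC-seq between MDA-MB-231 cells given Nexturastat A (NextA) and control cells (Ctrl), with 3 peak lists in each group. These 6 samples were chosen by their titles, out of 41 samples in the series, of which 32 had a peak list used here. MDA-MB-231 is a human triple-negative breast cancer line, which lacks oestrogen receptor, progesterone receptor and HER2 amplification. NextA cells received 5 µM of the compound for 2 days, Ctrl cells are labelled only as control, with no vehicle given in the labels used here, and each library started from 100000 cells. The labels name no hairpin in either group. The labels do not say whether replicates were separate cultures, so every p-value over lists measures the spread between these samples only, which may be technical.

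ATAC-seq uses a transposase that inserts sequencing adapters where DNA is not wrapped in nucleosomes or otherwise covered, so that active promoters and enhancers appear as peaks. Nexturastat A is a hydroxamate inhibitor selective for HDAC6, a deacetylase that sits largely in the cytoplasm and is best known for removing acetyl groups from α-tubulin, cortactin and HSP90. Nuclear histone deacetylases such as HDAC1, HDAC2 and HDAC3 instead act on histones at promoters and enhancers, where acetylation goes with open chromatin.

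The sequences below are the promoters of 6 genes named in the results at gene starts. They run from 250 bases before to 50 bases after the start, 5′ to 3′ on the gene's strand, from RefSeq GRCh38.p14. PCDH15 and DPF1 held a peak only in NextA lists, ZNF577 only in Ctrl lists, PCDH9 and CPA4 ranked higher with NextA and FAAP20 ranked lower. Capitals mark the CCAAT box (CCAAT, or ATTGG on the other strand) and the AP-1 motif (TGANTCA, either strand). CCAAT is the core that the factor NF-Y binds, and TGANTCA is the core bound by FOS and JUN proteins. PCDH15 and PCDH9 have 1 CCAAT each, DPF1 and CPA4 have 2 each, and ZNF577 and FAAP20 have 0. AP-1 letters occurred only in CPA4 among these 6, at 2 places.
PCDH15, chr10:54801182-54801481, minus strand: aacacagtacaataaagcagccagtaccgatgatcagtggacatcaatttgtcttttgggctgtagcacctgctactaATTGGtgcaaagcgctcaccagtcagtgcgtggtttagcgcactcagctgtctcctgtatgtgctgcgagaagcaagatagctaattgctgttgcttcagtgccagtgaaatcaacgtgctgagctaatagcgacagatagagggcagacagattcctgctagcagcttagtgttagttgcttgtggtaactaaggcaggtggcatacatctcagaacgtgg
DPF1, chr19:38229646-38229945, minus strand: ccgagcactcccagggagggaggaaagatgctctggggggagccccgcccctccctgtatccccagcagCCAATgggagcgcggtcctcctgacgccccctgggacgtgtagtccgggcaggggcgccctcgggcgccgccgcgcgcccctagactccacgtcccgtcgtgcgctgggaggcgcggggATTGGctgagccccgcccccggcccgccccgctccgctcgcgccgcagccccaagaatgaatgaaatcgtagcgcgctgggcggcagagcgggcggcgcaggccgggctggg
ZNF577, chr19:51887902-51888201, minus strand: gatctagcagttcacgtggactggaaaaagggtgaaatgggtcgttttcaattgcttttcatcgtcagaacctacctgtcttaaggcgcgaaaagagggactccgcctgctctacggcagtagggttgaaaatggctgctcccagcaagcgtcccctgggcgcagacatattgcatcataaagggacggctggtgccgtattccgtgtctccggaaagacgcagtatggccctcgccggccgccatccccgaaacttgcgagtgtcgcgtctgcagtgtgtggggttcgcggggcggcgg
PCDH9, chr13:67230287-67230586, minus strand: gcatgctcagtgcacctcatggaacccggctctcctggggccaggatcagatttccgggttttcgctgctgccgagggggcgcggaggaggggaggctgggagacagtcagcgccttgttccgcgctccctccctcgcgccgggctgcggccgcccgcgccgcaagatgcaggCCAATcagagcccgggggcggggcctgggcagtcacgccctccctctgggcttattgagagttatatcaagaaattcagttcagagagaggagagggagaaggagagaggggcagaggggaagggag
CPA4, chr7:130292911-130293210, plus strand: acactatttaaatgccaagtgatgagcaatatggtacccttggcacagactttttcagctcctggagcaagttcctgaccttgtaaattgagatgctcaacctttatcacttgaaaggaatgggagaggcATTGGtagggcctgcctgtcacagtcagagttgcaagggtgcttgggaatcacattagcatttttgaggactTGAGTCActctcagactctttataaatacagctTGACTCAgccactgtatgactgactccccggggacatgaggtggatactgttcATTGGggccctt
FAAP20, chr1:2212671-2212970, minus strand: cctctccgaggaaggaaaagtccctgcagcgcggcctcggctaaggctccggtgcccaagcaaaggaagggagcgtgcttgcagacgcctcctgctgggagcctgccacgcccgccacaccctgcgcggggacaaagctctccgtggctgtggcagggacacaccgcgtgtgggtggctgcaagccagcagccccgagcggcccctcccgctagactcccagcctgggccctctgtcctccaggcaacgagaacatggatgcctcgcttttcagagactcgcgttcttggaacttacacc

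List 1 of each group resembled list 1 of the other group more than lists 2 and 3 of its own, while among lists 2 and 3 those of the same treatment were more alike. In list 1 of both groups the listed peaks ended at a floor in q. In lists 2 and 3 of both groups they ended at a floor in p, with gaps in the peak numbering. The Jaccard index of covered bases, which is the shared length over the joint length, was 0.599 between NextA 1 and Ctrl 1. It was 0.502 between NextA 2 and NextA 3 and 0.513 between Ctrl 2 and Ctrl 3. Between NextA lists 2 and 3 and Ctrl lists 2 and 3 it lay between 0.442 and 0.449, and between any list 1 and any list 2 or 3 between 0.285 and 0.313. Mean similarity was 0.371 within groups and 0.397 between groups (one-sided p = 0.5 by exact permutation over the lists). Without list 1 of both groups the order turned, with 0.508 within groups and 0.446 between groups (exact permutation test, p = 0.333, the smallest that 2 against 2 can give).

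**Figure D1:**
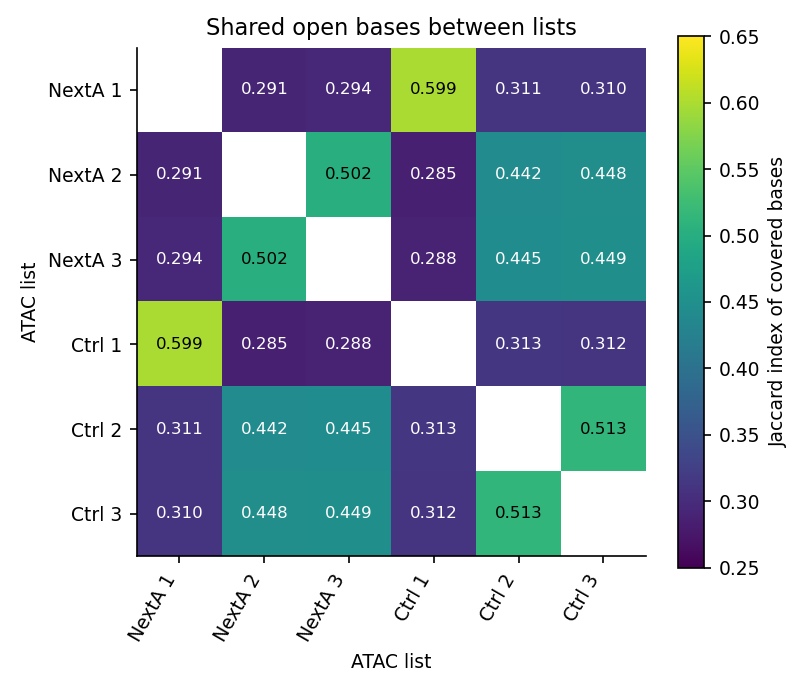
Jaccard index of covered bases for every pair of the 6 ATAC lists, with rows and columns in the same order. NextA 1 and Ctrl 1 shared 0.599 of their joint length, and lists 2 and 3 of both groups shared 0.442 to 0.513 among themselves.

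NextA lists held more open intervals than Ctrl lists within each pair of the same number. The NextA lists had 79666, 62732 and 59710 intervals on chromosomes 1 to 22 and X, and the Ctrl lists had 74018, 42113 and 44453. The groups overlapped because Ctrl 1 exceeded NextA 2 and 3, and the ratio of means was 1.26 (two-sided p = 0.3 by exact permutation over the lists, n = 3 each). The covered length was 37.3, 42.5 and 37.0 Mb in NextA lists and 34.99, 31.7 and 33.1 Mb in Ctrl lists, with no overlap (38.9 ± 3.07 against 33.2 ± 1.66 Mb, SD, n = 3 each). The two-sided p by exact permutation over the lists was 0.1, the lowest that groups of 3 allow.

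Genome-wide background moved the same way as interval number. It was 1.31, 0.443 and 0.413 fragments per position in NextA lists and 1.19, 0.291 and 0.322 in Ctrl lists, higher with NextA in each pair. When pileup and background were scaled to the shallowest list of each set, the interval ratio was 1.02 (exact permutation test, p = 0.7) and covered length became shorter with NextA, by 0.294 Mb. As deposited, depth and treatment moved together in every pair, so their parts in the surplus of intervals cannot be told apart. In lists 2 and 3 the cut of the lists differed by group too. They kept 21.2% and 21.3% of their peak numbering with NextA and 3.92% and 3.90% in Ctrl. Median interval width there was 637 and 573 bp with NextA and 705 and 699 bp in Ctrl. The part of this cut cannot be told apart from treatment either.

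Intervals away from gene starts made up more of the NextA lists. The share of intervals whose summit fell within 1 kb of a gene start was 14.4%, 16.1% and 16.6% in NextA lists and 15.7%, 23.2% and 22.3% in Ctrl lists. It was lower with NextA in each pair, and the means of 15.7% ± 1.132 and 20.4% ± 4.08 (SD, n = 3 each) had a two-sided p of 0.3 by exact permutation over the lists. After scaling for depth the difference was -1.73 percentage points, against -4.69 as deposited.

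**Figure D2:**
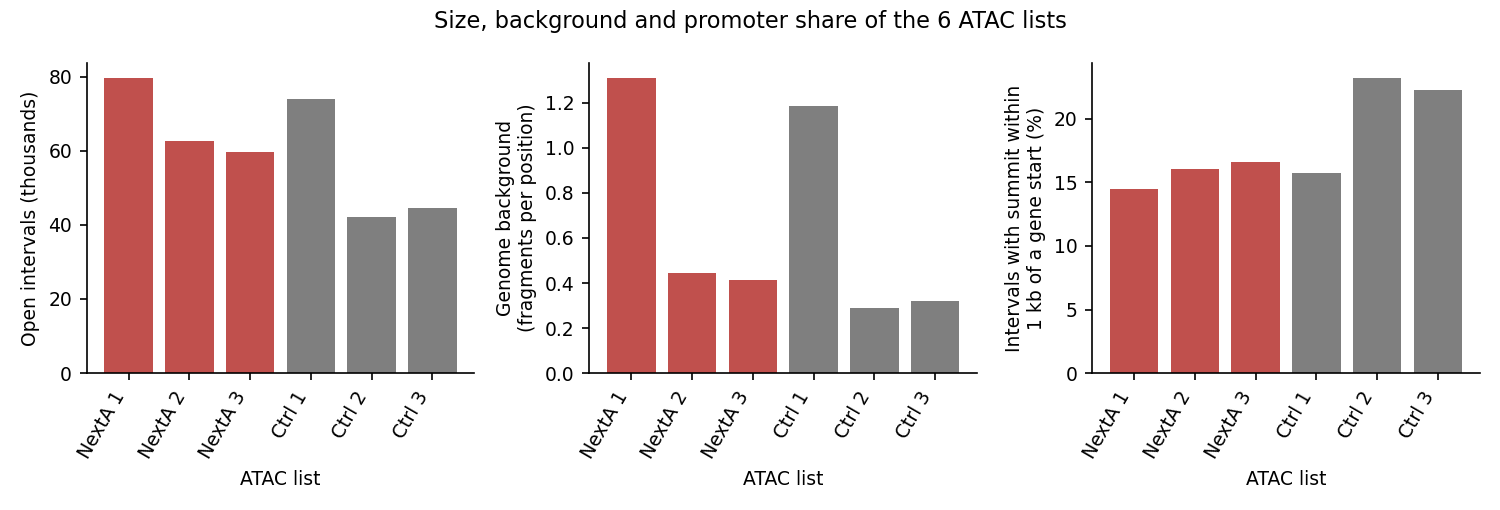
Open intervals, genome background and the share of intervals at gene starts for each list, NextA in red and Ctrl in grey. Background and interval number were higher in NextA and the gene start share lower in NextA within every pair of the same list number.

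Most promoters that were open in one group were open in both. A promoter was counted as open where a peak overlapped the gene start ± 1 kb, and 15812 of 19974 protein-coding genes had a start in the RefSeq table. Of these, 7915 (50.1%) were open in all 6 lists, 8394 (53.1%) in all 3 NextA lists and 8401 (53.1%) in all 3 Ctrl lists, and 4479 (28.3%) had no peak in any list. The peak at HDAC6, the target of the compound, had a pileup (fragments stacked at the summit) of 98, 31 and 31 in NextA lists and 98, 31 and 34 in Ctrl lists. These groups overlapped, and the rank of HDAC6 among shared regions did not differ past the threshold (adjusted p = 0.818 by limma with the list number as a block).

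Markers of the line and of other cells were each open in part. The share open in all 6 lists was 62.5% for the line, 20% for leukocytes, 30% for neurons and 53.3% for epithelial and luminal genes. Over all 15812 promoters it was 50.1%, and 28.3% had no peak in any list. Of 8 MDA-MB-231 markers with a start in the table, 5 were open in all 6 lists (VIM, CD44, CAV1, S100A4 and ITGB1). AXL, MSN and PLAU had a peak in 1, 2 and 2 NextA lists and in 2, 3 and 1 Ctrl lists. Among 10 leukocyte markers 2 were open in all 6 lists (CD8A and CD68), and PTPRC, CD3D, CD79A, ITGAM and NKG7 had no peak in any list. Among 10 neuron markers 3 were open in all 6 lists (SYP, TUBB3 and GAD1) and 4 had no peak in any list (SYN1, MAP2, GAD2 and DCX). Of 15 listed epithelial and luminal genes with a start, 8 were open in all 6 lists and 3 had no peak in any list. ESR1, the oestrogen receptor gene, had no peak at the start used here in any list, and KRT8, a keratin of simple epithelia, had one in all 6. Other starts of these genes were not examined.

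Few promoters were open in every list of only one group. With NextA, 6 promoters (0.0379% of 15812) were gained, meaning a peak in all 3 NextA lists and in no Ctrl list, and 8 (0.0506%) were lost. The gained promoters were those of FGF1, PCDH15, DPF1, TECTB, SCN2A and MMP15. The lost ones were CHRNB2, ZNF577, KLHL29, UBTF, TRAF3, ETNK2, GABARAP and DENND2A. At equal list length, where each list was cut to as many of its top peaks as the shortest holds, 1 promoter was gained (0.00632%) and 38 were lost (0.24%). FGF1 was the 1 promoter called in both ways (0.00632%), and no lost promoter was (0%). Leaving out any 1 list gave between 17 and 65 promoters gained and between 20 and 96 lost. Fewer lists relax the rule for a call, so these counts could not fall.

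FGF1, an acidic fibroblast growth factor, had a gained call that rested on the edge of the window. Pileup there was 30, 13 and 19 in NextA lists, with summits at -1164, -1162 and -1166 bp from the start at chr5:142698070 (a negative value is upstream). All 3 Ctrl lists held a peak that overlapped the NextA one just outside the window, with pileups of 26, 10 and 13. NextA was higher than Ctrl in each pair, and the test of this region's rank did not pass (adjusted p = 0.869 by limma with the list number as a block). TRAF3, an adaptor of TNF receptor signalling, and UBTF, a factor for ribosomal RNA transcription, were of the same kind: 1 and 2 NextA lists held a peak that overlapped the Ctrl one outside the window. The other 11 calls had no overlapping peak in the lists of the other group.

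Of those 11, 5 were gained. PCDH15, a protocadherin of inner ear hair cells, had pileups of 10, 10 and 8 in NextA lists with summits at 39, -28 and -32 bp from the start. DPF1, a neuronal subunit of BAF chromatin remodelling complexes, had 19, 11 and 18. SCN2A, a neuronal sodium channel, had 11, 5 and 5, of which 5 was the lowest pileup of any peak in lists 2 and 3. MMP15, a membrane-type metalloproteinase, had 13, 15 and 10. Its NextA 1 peak, with the summit at -778 bp, did not overlap those of NextA 2 and 3, at -80 and -89 bp. The summits at TECTB, an inner ear matrix protein gene with pileups of 12, 6 and 6, were at -1102, -1101 and -1080 bp. Ranked by the authors' fold over background within each NextA list, MMP15 stood at percentiles 0.938, 29.8 and 1.94 and DPF1 at 30.3, 2.70 and 75.1. Among these 5 the mean percentile over the NextA lists ran from 10.9 (MMP15) to 45.9 (PCDH15). These 5 had no peak in any Ctrl list, where the lowest pileup of any Ctrl peak was 7 in list 1 and 5 in lists 2 and 3.

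The lost promoters had no peak within 1 kb of the start in any NextA list, and their Ctrl peaks varied in height. GABARAP, an ATG8-family protein of autophagosomes, had pileups of 17, 22 and 19 in Ctrl lists, and KLHL29, a kelch-like protein, had 46, 17 and 19. CHRNB2, a nicotinic receptor subunit, had 13, 9 and 10, and ETNK2, an ethanolamine kinase, had 13, 11 and 10. The ETNK2 peak of Ctrl 3, with its summit at 1166 bp from the start, did not overlap those of Ctrl 1 and 2. ZNF577, a zinc finger gene, had 9, 8 and 5, and DENND2A, a Rab exchange factor, had 13, 10 and 10. The DENND2A peak of Ctrl 1, with its summit at 522 bp, did not overlap those of Ctrl 2 and 3. By fold within each Ctrl list, GABARAP stood at percentiles 0.582, 28.3 and 8.48, and DENND2A at 6.23, 2.98 and 2.13. The mean percentile of a lost promoter over the Ctrl lists ran from 3.78 (DENND2A) to 36.0 (CHRNB2). None of the 8 was called at equal list length.

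The promoter windows of the 6 gained genes all held CCAAT, against 2 of 8 lost genes, 40.5% of promoters open in all 6 lists and 36.3% of all 15812 promoters. Their median GC content was 46.2%, against 72.7% for the lost genes and 65.3% for promoters open in all 6 lists. The summit lay outside the 300-base window that was searched in every NextA list for FGF1 and TECTB, in NextA 1 for MMP15 and in NextA 2 for SCN2A. The gained and lost genes number 6 and 8, and these shares are a description.

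Away from gene starts, gained regions outnumbered lost ones. Of 107942 distal regions, more than 1 kb from any gene start, 593 (0.549%) were gained with NextA, 61 (0.0565%) were lost and 12150 were open in every list. After scaling for depth 240 were gained and 98 lost, and at equal list length 163 were gained (0.151%) and 141 lost (0.131%). Both the lists as deposited and those of equal length called 85 gained (0.0787%) and 13 lost (0.012%) regions. Leaving out 1 list gave between 882 and 6525 gained and between 113 and 539 lost, with the most gained regions without NextA 1. Leaving out list 1 of both groups gave 8705 and 1102. Here too fewer lists relax the rule, so the counts could not fall.

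The lists 1 and the lists 2 and 3 were also read apart. Of 17195 regions open in NextA list 1 and not in Ctrl list 1, 3.68% were open in NextA lists 2 and 3 and in neither Ctrl list 2 nor 3, and 0.733% the reverse. Of 11212 regions open in Ctrl list 1 and not in NextA list 1, 2.68% and 0.678% were. Of 60592 regions in both lists 1, 3.41% and 1.03% were, and of 38216 regions in neither, 16.4% and 1.53%. Regions of lists 2 and 3 open with NextA alone outnumbered those open in Ctrl alone in each of these 4 classes. The share open with NextA alone was close between regions held by NextA list 1 alone and by both lists 1, and the share open in Ctrl alone was lowest where Ctrl list 1 alone held the region.

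The gained distal regions were weak peaks. Their median pileup was 14, 8 and 7 in NextA lists, where distal regions open in every list had 40, 16 and 15. The lost regions had 15, 8 and 8 in Ctrl lists, where regions open in every list had 40, 12 and 12. Of the gained regions 42.3% lay inside a protein-coding gene, against 60.7% of lost regions, 50.3% of those open in every list and 46.8% of all distal regions. The median distance to the nearest gene start was 67.1 kb for gained, 31.6 kb for lost and 64.5 kb for all distal regions.

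The highest-ranked gained region called in both ways was at chr7:134327661-134328420, 11.1 kb from the start of SLC35B4, a nucleotide sugar transporter, with pileups of 22, 17 and 13 in NextA lists and no peak in Ctrl lists. Next came chr7:120733171-120733751 inside KCND2, a potassium channel gene, with 18, 12 and 12. The region at chr3:170815409-170816149, 54.4 kb from RPL22L1, had 30, 24 and 14. A gained region 9.36 kb from LRRC30 had 33, 7 and 13, and one 285 kb from ARPP21 had 27, 12 and 8. Of genes with any called distal region inside them, 10 held 2 gained regions each and no lost one, among them EYS, FRMPD4, HIPK2, KAZN, KCNJ6, PDE4B, PDE4D, PPP2R2C and SLIT3. They held between 11 (FRMPD4) and 79 (KAZN) distal regions in all.

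Among lost distal regions called in both ways the highest-ranked was chr1:52946761-52947333 inside SCP2, a sterol carrier protein gene, with no peak in NextA lists and pileups of 30, 8 and 7 in Ctrl lists. A region inside TCF7L2, a transcription factor of the Wnt pathway, at chr10:112963709-112964124 had 28, 6 and 8. One inside RNF216, a ubiquitin ligase gene, had 21, 7 and 7. Those nearest ACTBL2 and MAX had 32, 5 and 5 and 27, 9 and 5.

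Gained distal regions rarely carried HDAC6, pan-acetyl or RNA polymerase II (PolII) peaks in the other assays of the series, which were not used to choose them. Peaks of HDAC6 ChIP in Ctrl replicate 1 overlapped 3.04% of gained, 14.8% of lost and 21.9% of distal regions open in every list, beside 6.99% of all distal regions. In Ctrl replicate 2 these shares were 1.35%, 4.92% and 4.74%, beside 2.81%. The titles name CST for replicate 1 and Novus for replicate 2, read here as antibody suppliers, so these are not like replicates. HDAC6 CUT&Tag gave 1.01% and 2.87% of gained, 3.28% and 8.20% of lost and 22.1% and 22.5% of regions open in every list, beside 3.99% and 5.56% of all distal regions. Pan-acetyl ChIP of NextA cells overlapped 2.36% and 3.71% of gained regions, beside 7.02% and 5.91% of all distal regions. PolII of NextA cells overlapped 3.88% and 2.53% of gained regions, beside 9.42% and 7.02% of all distal regions. Gained regions were below all distal regions in each of these lists. In the weak HDAC6 ChIP of shHDAC6 cells replicate 1 they were not, at 0.843% against 0.81%. The median pileup of gained regions was also below that of all distal regions, 14 against 22 in NextA 1, and its part was not tested.

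**Figure D3:**
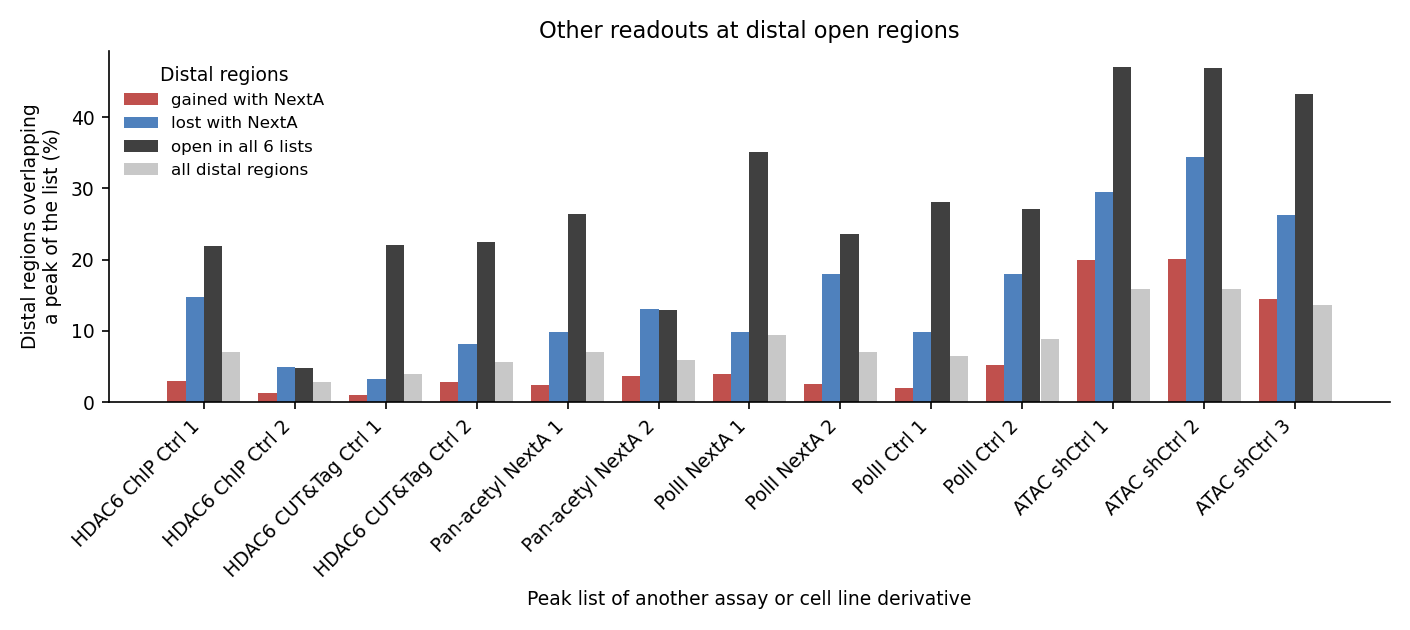
Share of distal regions that overlap a peak of another list, for regions gained with NextA (593), lost with NextA (61), open in all 6 lists (12150) and all distal regions (107942). Gained regions fell below all distal regions in the plotted HDAC6, pan-acetyl and PolII lists and above them in the ATAC lists of the control hairpin line.

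Some gained regions were open in hairpin derivatives of the line. Each of the ATAC lists from cells with a control hairpin (shCtrl) held 14.5% to 20.1% of gained regions, beside 13.6% to 15.9% of all distal regions. Each from cells with an HDAC6 hairpin (shHDAC6) held 12.0% to 20.2% of gained and 11.7% to 15.2% of all distal regions. At least 1 of these 6 lists held 38.6% of gained, 45.9% of lost, 62.0% of always-open and 26.0% of all distal regions. All 6 of them held 1.85% of gained, 9.84% of lost, 27.2% of always-open and 5.83% of all distal regions, so that gained regions were below all distal regions there. After HDAC6 knockdown 3 of the 593 regions were gained (0.506%) and 3 were lost (0.506%), beside 0.101% and 0.36% of all distal regions.

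Strength was compared over the 21786 regions that held a peak in all 6 lists, of which 7996 (36.7%) lay at gene starts and 12150 were distal. Each region was ranked within its list, so that the percentile of a region can be set side by side between lists. On ranks of the authors' fold, limma called 0 regions higher and 0 lower with NextA at an adjusted p under 0.05 (0% of 21786 each way). There were 425 regions at an unadjusted p under 0.05, and the smallest adjusted p was 1. The list number entered the residual spread of that fit, since pileup percentiles correlated at r = 0.912 across regions between NextA 1 and Ctrl 1 but at 0.436 between NextA 1 and NextA 2. With the list number as a replicate block, 2 regions rose (0.00918%) and 0 fell.

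Ranks of pileup with the same block, a choice made after seeing the data, called 40 regions higher (0.184%) and 7 lower (0.0321%). Without the block they called 0 and 0, with 237 at an unadjusted p under 0.05. With the list set as a term in place of the number they called 7 and 0 (0.0321% and 0%), and lists 2 and 3 alone called 117 and 62 (0.537% and 0.285%). Of the 40 higher regions 34 were distal and 5 lay at gene starts, and 33 were also higher in list 1. Of the 7 lower regions 5 were distal, 2 lay at gene starts and 7 were also lower in list 1. List 1 took part in these calls, so its direction is not separate support. Of regions called from lists 2 and 3 alone, 73 of 117 higher (62.39%) and 35 of 62 lower (56.45%) moved the same way in list 1. Change in pairs 2 and 3 correlated weakly (r = 0.299, n = 21786 regions within the same libraries), and change in list 1 against the mean of lists 2 and 3 hardly at all (r = 0.0414).

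The strongest call lay inside DRGX, a homeobox gene of sensory neurons, at chr10:49386754-49387736. Its pileup was 20, 26 and 24 in NextA lists and 13, 5 and 5 in Ctrl lists, without overlap. Its mean percentile was 51.5 with NextA and 1.79 in Ctrl, a shift of 2.10 normal score units (SE 0.38, adjusted p = 0.00207 by limma with the replicate block on pileup ranks, higher in 3 of 3 pairs). It also passed on ranks of the fold (adjusted p = 0.0131 by limma with the block). The other region that rose on fold ranks lay 1039 kb from the start of NMBR, a neuromedin receptor gene, with pileups of 28, 25 and 21 in NextA lists and 12, 6 and 8 in Ctrl lists.

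Several higher regions lay inside genes of unlike function. RNF128, an E3 ubiquitin ligase, had an internal region at chrX:106707857-106708721 with pileups of 85, 34 and 25 in NextA lists and 79, 7 and 9 in Ctrl lists. MAGI1, a junction scaffold, had 87, 35 and 28 in NextA lists and 65, 9 and 12 in Ctrl lists. The change was large in pairs 2 and 3 of both genes and small in pair 1. PDE4D, a cAMP phosphodiesterase, had 75, 24 and 14 against 63, 6 and 6 in Ctrl. A region inside ESR1 had 60, 31 and 34 in NextA lists and 47, 10 and 17 in Ctrl lists (chr6:152094534-152095829, adjusted p = 0.0418 by limma with the block on pileup ranks). It lay 439 kb from the ESR1 start used here, which held no peak in any list, and other ESR1 starts were not examined. HTR3A, a serotonin-gated channel, and TTF2, a transcription termination factor, held higher regions too, with 51, 32 and 20 against 19, 8 and 14 in Ctrl and 67, 36 and 50 against 39, 16 and 25 in Ctrl. The HTR3A region lay within 1 kb of an end, 5′ or 3′, of a gene that has no start in the table. HTR3A itself has none there, and the nearest listed start was that of HTR3B, 70.4 kb away. Whether the region is the HTR3A promoter was not examined. It was therefore counted neither as distal nor as a gene start.

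Intergenic regions made up most of the rest. A region 1668 kb from the start of AGA had pileups of 43, 31 and 29 in NextA lists and 47, 7 and 5 in Ctrl lists, lower with NextA in pair 1. One 143 kb from EMP1, an epithelial membrane protein gene, had 20, 31 and 30 in NextA lists and 16, 8 and 6 in Ctrl lists. One 77.5 kb from S1PR1, a sphingosine-1-phosphate receptor gene, had 44, 21 and 24 against 34, 10 and 5 in Ctrl. The region 157 kb from VEGFC, a lymphatic growth factor gene, had 37, 17 and 14 against 26, 5 and 5 in Ctrl. At VEGFC and at DRGX the Ctrl pileup in lists 2 and 3 was 5, the lowest that any peak of those lists had.

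Of the regions at gene starts, CPA4 and PCDH9 ranked higher. CPA4, a carboxypeptidase first described as a transcript induced by histone deacetylase inhibitors, had pileups of 70, 29 and 25 in NextA lists and 67, 8 and 8 in Ctrl lists (adjusted p = 0.0206 by limma with the block on pileup ranks). Its summits lay 75, 93 and 85 bp before the start in NextA lists, within the window that holds its AP-1 and CCAAT letters. The neighbouring CPA5 held a higher internal region too, with 86, 27 and 30 in NextA lists and 61, 10 and 14 in Ctrl lists. PCDH9, a protocadherin, had 33, 75 and 62 in NextA lists and 14, 44 and 45 in Ctrl lists (adjusted p = 0.0184). PCDH9 did not pass by limma with the list set as a term (adjusted p = 0.0641) or in lists 2 and 3 alone (0.102). On fold ranks with the block its adjusted p by limma was 0.878. The PCDH9 summit lay at -91 bp in NextA 1 and at -895 bp in Ctrl 1, so pair 1 set different positions side by side. The start shared by POFUT1, an O-fucosyltransferase acting on Notch, and PLAGL2, a zinc finger factor, had 38, 19 and 27 in NextA lists and 17, 8 and 9 in Ctrl lists, without overlap between the groups (adjusted p = 0.0354).

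The lower regions included 2 gene starts. MINDY3, a deubiquitinase, had pileups of 18, 6 and 8 in NextA lists and 32, 14 and 16 in Ctrl lists (adjusted p = 0.0354 by limma with the block on pileup ranks). FAAP20, a subunit of the Fanconi anaemia core complex, had 66, 15 and 16 in NextA lists and 90, 28 and 27 in Ctrl lists (adjusted p = 0.0354). The internal region of ACTN1, an α-actinin that crosslinks actin, had 78, 15 and 14 in NextA lists and 97, 23 and 34 in Ctrl lists. KIF17, a kinesin motor, had 62, 14 and 12 against 68, 26 and 27 in Ctrl, and MAP3K3 had 41, 6 and 5 against 46, 11 and 14 in Ctrl. The value was lower with NextA in 3 of 3 pairs at all 7 lower regions, and all 3 pairs took part in the call.

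Higher and lower regions differed in the other readouts, as a description of 40 and 7 regions. PolII peaks of Ctrl cells overlapped 5% and 20% of higher and 57.1% and 85.7% of lower regions, beside 54.8% and 56.1% of all shared regions. Pan-acetyl peaks of NextA cells overlapped 7.5% and 10% of higher and 71.4% and 57.1% of lower regions, beside 53.4% and 30.9%. Shared regions include gene starts, whereas 34 of the 40 higher regions were distal. Distal regions open in every list are nearer to these, at 28.1% and 27.1% for PolII and 26.4% and 12.9% for pan-acetyl. The part of location in the contrast was not tested.

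**Figure D4:**
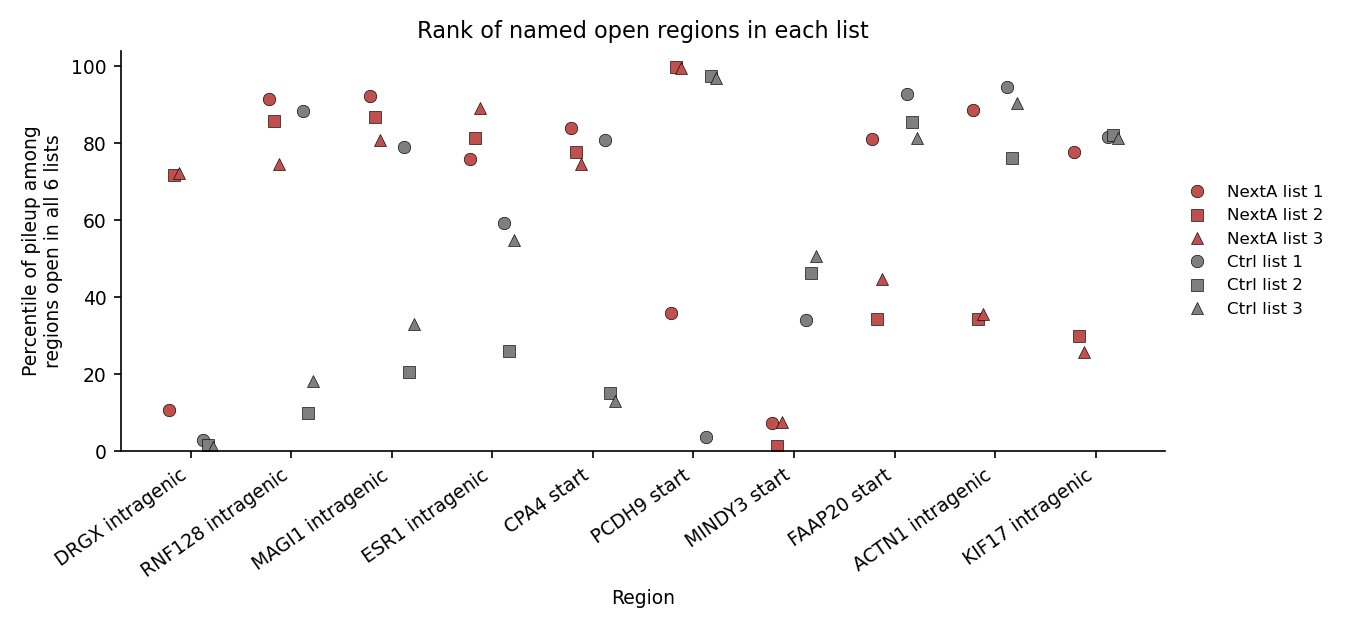
Percentile of pileup in each list, among the 21786 regions open in all 6 lists, for 10 named regions, with NextA in red left of Ctrl in grey and list numbers as marker shapes. CPA4 stood near the same height in NextA 1 and Ctrl 1 and far apart in lists 2 and 3, while MINDY3 was lower in every NextA list.

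Gene starts as a class stood lower relative to distal regions with NextA. Over the shared regions, mean pileup at gene starts over that at distal regions was 1.02, 1.52 and 1.46 in NextA lists and 1.03, 1.68 and 1.67 in Ctrl lists. It was lower with NextA in each pair, by little in pair 1. Relative to the genome background, mean pileup at gene starts was 36.2, 61.5 and 59.3-fold in NextA lists and 40.6, 79.0 and 75.4-fold in Ctrl lists. At distal regions it was 35.5, 40.3 and 40.6-fold in NextA lists and 39.3, 47.0 and 45.1-fold in Ctrl lists. Both classes were lower over background with NextA, and the background itself was higher in the NextA lists.

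Of 8001 protein-coding gene starts in shared regions, 180 ranked higher (2.25%) and 501 lower (6.26%) at an unadjusted p under 0.05, on pileup ranks with the block. The count was 4 higher and 2 lower after adjustment over all shared regions. The median change was -0.654, -1.19 and -2.19 percentile points in pairs 1, 2 and 3. The change in pairs 2 and 3 was largest at gene starts of low level. With the starts split into 4 groups of equal size by mean level, in the lowest group starts without CCAAT changed by -1.59, -7.28 and -10.7 points in the 3 pairs. In the highest group they changed by -0.443, -0.0275 and -0.422 points. Percentile points are not an even scale of pileup, and near the top a point spans more pileup. In NextA 2 the medians of these starts went from 14 to 22 over percentiles 29.8 to 61.1 between the lowest groups. Between the highest groups they went from 30 to 43 over percentiles 79.6 to 93.3. The part of this scale in the smaller change at high level was not tested. In pair 1 the group next to the lowest changed more than the lowest, by -1.89 points.

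Promoters with CCAAT kept their rank more than those without. The 3225 starts with it changed by 0.0184, -0.418 and -0.854 points in pairs 1, 2 and 3, and the 4776 without it by -1.29, -2.13 and -3.81 points. CCAAT was present in 61.1% of the 180 higher starts and 30.5% of the 501 lower ones, beside 40.5% of promoters open in all 6 lists. Of the 512 possible patterns of 5 letters, with both strands merged, CCAAT ranked 1 for the gap between promoters with and without it in pairs 2 and 3, and 4 in pair 1. The gap in median change over the group means was 2.19 points.

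CCAAT promoters also had higher levels, and within the 4 level groups the gap was smaller. Their median percentile was 63.1, 81.3 and 80.9 in NextA lists 1, 2 and 3, where starts without it had 45.2, 64.1 and 60.7. From the lowest to the highest level group, starts with CCAAT changed by -5.28, -2.91, -0.692 and 0.255 points over the group means. Starts without it changed by -5.98, -4.04, -1.37 and -0.147 points. In pair 2 the next-to-highest level group was lower with CCAAT, at -0.927 against -0.734 points without it. The share of starts ranked higher at an unadjusted p under 0.05 was larger with CCAAT in each level group, from the lowest up, at 1.10% against 0.687%, 2.59% against 0.967%, 3.21% against 2.36% and 5.03% against 2.41%. Between NextA 2 and NextA 3, which received the same treatment, CCAAT starts also differed from the others by -0.975 points, while between Ctrl 2 and Ctrl 3 they differed by -0.023 points.

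**Figure D5:**
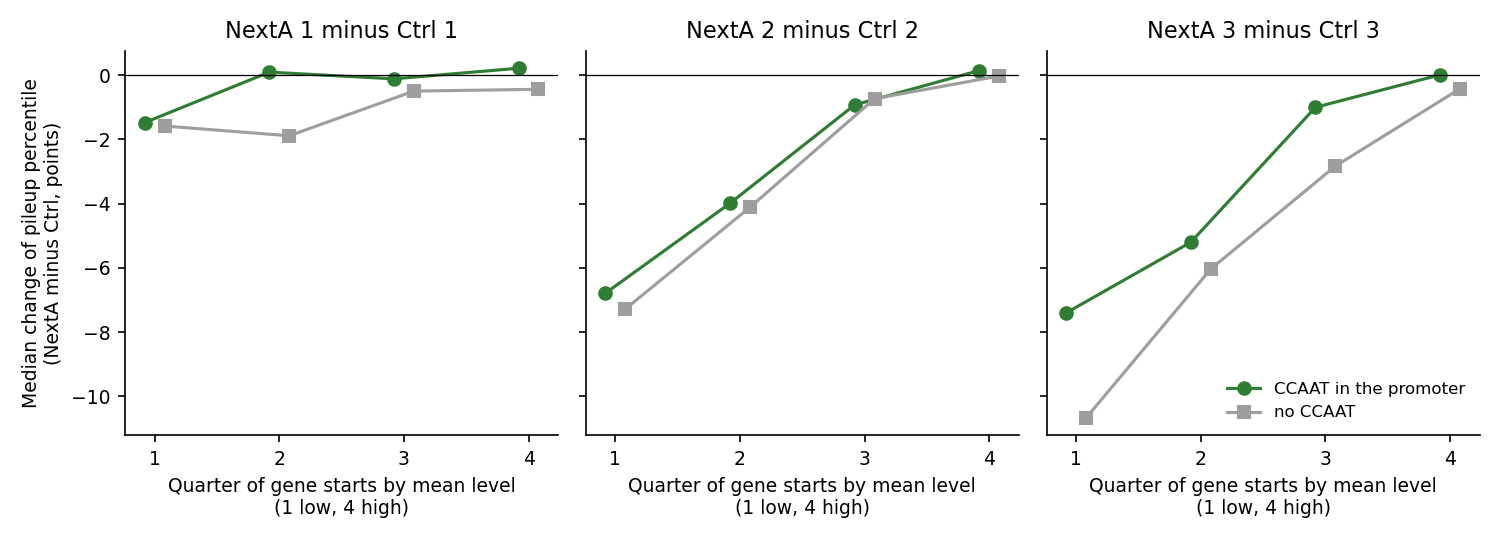
Median change of pileup percentile (NextA minus Ctrl) of gene starts in 4 groups of equal size by mean level, for each pair of lists, with and without CCAAT in the 300-base promoter window. In pairs 2 and 3 the lowest group changed most, reaching -10.7 points in pair 3 without CCAAT, while in pair 1 without CCAAT the next group changed more (-1.89 against -1.59 points).

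Other patterns were also counted on either strand. The ETS pattern CCGGAA was in 27.8% of higher and 35.1% of lower starts, beside 34.3% of promoters open in all 6 lists. The E-box CACGTG was in 5.56% of higher and 11.2% of lower starts, beside 10.5%. The SP/KLF box GGGCGG was in 76.7% and 70.3%, beside 73.2%, and the AP-1 pattern in 4.44% and 3.39%, beside 4.02%. Median GC content was 65.2% and 65.7%.

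Single deacetylase genes ranked apart without passing adjustment. None of the 25 gene lists examined had a start past the adjusted threshold, which 4 of 8001 gene starts passed as higher and 2 as lower. The median change of a list ran from -7.25 points for 5 ranked mesenchymal genes to 8.13 points for 7 ranked YAP and TEAD genes, beside -1.565 points over all gene starts. Of 13 ranked deacetylase and sirtuin genes, 1 was higher and 1 lower at an unadjusted p under 0.05, beside 2.25% and 6.26% of all gene starts. HDAC4, a class IIa histone deacetylase, had pileups of 75, 28 and 27 in NextA lists and 46, 18 and 23 in Ctrl lists (adjusted p = 0.445 by limma with the block on pileup ranks). SIRT3, a mitochondrial deacylase, had 40, 20 and 24 in NextA lists and 35, 38 and 28 in Ctrl lists (adjusted p = 0.426). Of 17 ranked tubulin and microtubule genes 0 were higher and 0 lower at an unadjusted p under 0.05. TUBA1B, an α-tubulin, had 22, 33 and 33 in NextA lists and 25, 21 and 23 in Ctrl lists, with overlap between the groups.

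Single actin and acetyl-CoA genes ranked higher or lower before adjustment, and none passed after it. Of 14 ranked actin and motility genes 2 were higher and 0 lower at an unadjusted p under 0.05, namely RHOB, a small GTPase, and VCL, the focal adhesion protein vinculin, beside 2.25% and 6.26% of all gene starts. RHOB had pileups of 69, 50 and 34 in NextA lists and 53, 30 and 22 in Ctrl lists (adjusted p = 0.264 by limma with the block on pileup ranks). Of 10 ranked acetyl-CoA supply genes 1 was higher and 1 lower, beside the same shares of all gene starts. ACSS2, which makes acetyl-CoA from acetate, had 96, 58 and 48 in NextA lists and 74, 35 and 30 in Ctrl lists, higher in 3 of 3 pairs (adjusted p = 0.101). CHEK1, a DNA damage checkpoint kinase, had 83, 16 and 17 in NextA lists and 108, 25 and 25 in Ctrl lists (adjusted p = 0.0996). Of 7 ranked AP-1 genes 1 was higher and 1 lower at an unadjusted p under 0.05, beside the same shares of all gene starts. Their median change was -1.947 points, beside -1.565 over all gene starts. Among them FOS had 42, 42 and 33 against 54, 21 and 18 in Ctrl, and JUNB had 39, 38 and 35 against 25, 34 and 35 in Ctrl. Neither passed the adjusted threshold (adjusted p = 0.39 and 0.394 by limma with the block on pileup ranks).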

How the data were processed

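The 6 peak lists of accessible chromatin in MDA-MB-231 cells were analysed, 3 with NextA and 3 Ctrl, grouped by title. The submitters' processing notes give hg38 as the build and list MACS2 2.2.7.1, Bowtie2 2.4.4, ChIPseeker 1.28.2, SAMtools 1.13, Trim Galore 0.6.7 and deepTools 3.5.1, with no role stated. Each peak's fold over background is a deposited linear ratio, its −log10 p and −log10 q are the authors' deposited values, and the deposited score is 10 times one of these cut to a whole number. Read depth per library is not given in the sources used here.

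The fold was taken as pileup plus 1 over background plus 1, and p as a Poisson tail, as MACS2 computes them, and the whole-number pileup and the background were recovered from both (at least 99.965% of peaks per list, relative tolerance 1e-04). Lists 2 and 3 kept 21.2% and 21.3% of their peak numbering with NextA and 3.92% and 3.90% in Ctrl, and lists 1 kept 100%. Peaks were merged per interval, and an overlap of at least 1 bp counted. Gene starts came from RefSeq GRCh38.p14, with no protein-coding start on chromosome 8 in the table used. Regions were ranked within lists and tested with limma 3.58.1 (R 4.3.3) on normal scores of ranks, with Benjamini-Hochberg adjustment over 21786 regions, a normal score being the normal quantile of the rank. The fit was tested on simulated data. Other tests were exact permutation tests over lists.

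The list numbers pair the samples by a rule on deviations: pileup ranks of same-numbered lists deviated together (r = 0.805, 0.513 and 0.492 over regions). Numbers 2 and 3 were not told apart, since NextA 2 correlated at 0.532 with Ctrl 3. The peak names carry other numbers than the labels in lists 2 and 3, and labels were followed. Named genes were HDAC6, the promoters and distal regions called in both ways by highest percentile, filled where fewer than 5, shared regions by smallest p, and list members past a threshold. Other genes were named after their values were seen. Members and lists were chosen with earlier results of these data known. Python 3.11.15, NumPy 2.4.6 and SciPy 1.17.1 were used.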

Additional observations from a re-analysis of the deposited data

How the results depend on the processing

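The lists limit what can be called: groups have 3 lists, list 1 has a floor on another measure than lists 2 and 3, the fragment depth is known only through the background, and a region absent from a list may lie just under its threshold. As deposited, 6 promoters were gained and 8 lost, and 593 distal regions were gained and 61 lost. Equal list length gave 1, 38, 163 and 141. A −log10 q of at least 5 gave 17 promoters gained, 383 distal regions gained and 22 lost. Scaling for depth, chosen after seeing the data, gave 3, 23, 240 and 98. A 3 kb window gave 11 promoters gained. Leaving out 1 list gave 17 to 65 promoters gained, 20 to 96 lost, 882 to 6525 distal regions gained and 113 to 539 lost, and leaving out list 1 of both groups gave 129, 159, 8705 and 1102. NextA minus Ctrl in covered length was 5.68 Mb, reversed to -1.19 Mb at equal length and -0.294 Mb after scaling, and ranged from 3.91 to 7.39 Mb when lists were left out. Within-group minus between-group similarity, -0.0264, reversed to 0.0173 without NextA 1 and 0.0615 without list 1 of both groups, its lowest value being -0.0465. The replicate block on fold ranks gave 2 regions higher in place of 0, pileup ranks with the block 40 higher and 7 lower, pileup ranks with the list set as a term 7 higher, and lists 2 and 3 on pileup ranks 117 higher and 62 lower. Leaving out 1 list on fold ranks gave 0 each way. The 45 named shared regions leave out chromosome 8. Of these, 2 passed on fold ranks with the block, 7 with the list set as a term and 39 in lists 2 and 3 alone, and none reversed. Leaving out lists relaxes the rule for gained and lost calls, so those counts could not fall. Where another count moved, the cause was not tested.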
